A study of Homo sapiens with 21 samples.

Results

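The genes described here are 10 of the 19683 gene symbols in a count table of HepG2/C3A cells. They were chosen by symbol: 7 metallothionein genes (MT1E, MT1F, MT1G, MT1H, MT1M, MT1X and MT2A), the zinc sensor MTF1 and the exporters SLC30A1 and SLC30A10. HepG2/C3A is an established human cell line derived from a liver tumour, labelled WT and epithelial-like, and its RNA was measured by TempO-Seq, which joins paired detector oligos that sit next to each other on a transcript and counts the joined products by sequencing. The design follows the transcriptome while spheroids form and are maintained. There were 6 groups of spheroids, collected at Days 3, 7, 10, 14, 21 and 28, and 1 group grown flat as a 2D monolayer, the control, with 3 libraries in each group. All were grown from the same line in MEM medium with fetal bovine serum, non-essential amino acids and antibiotics. Spheroids were aggregated in ultra-low attachment plates and cultured on in a ClinoReactor, a rotating culture vessel. A single tumour-derived line stands for the hepatocyte here, and the monolayer has no time series of its own, so time in culture and 3D growth cannot be told apart in a comparison with it.

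Metallothioneins are small cysteine-rich proteins that bind zinc, copper and cadmium and buffer free zinc in the cell. Free zinc activates MTF1, a zinc-finger transcription factor that binds short metal response elements in front of metallothionein genes and of SLC30A1. SLC30A1 moves zinc out across the plasma membrane. SLC30A10 belongs to the same transporter family and is known in human liver mainly for exporting manganese, whose levels rise in people who lack it. The liver stores and distributes these metals, and its metallothionein genes also answer to glucocorticoids and other signals.

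The 7 metallothionein genes lie close together on chromosome 16 (GRCh38, GENCODE 29), where MT2A spans 56608199 to 56609497 and MT1X spans 56682424 to 56684196, both on the plus strand. Between them MT1E starts at 56625475, MT1M at 56632233, MT1F at 56657694 and MT1H at 56669814, all on the plus strand, and MT1G spans 56666731 to 56668065 on the minus strand. MTF1 (37809567 to 37859620), SLC30A1 (211571568 to 211578742) and SLC30A10 (219685427 to 219958647) lie on the minus strand of chromosome 1. Each metallothionein coding sequence is 183 bases in 3 exons, and the 21 pairs among the 7 genes are 88.5% to 95.1% identical, with a median of 91.8%. The closest pair, MT1G and MT2A, is shown because it makes clear how little separates the copies that the detector oligos must tell apart. The pair is identical at 174 of 183 bases, and the 9 bases that differ are in capitals (GENCODE 29 coding sequences, 5′ to 3′).
MT1G: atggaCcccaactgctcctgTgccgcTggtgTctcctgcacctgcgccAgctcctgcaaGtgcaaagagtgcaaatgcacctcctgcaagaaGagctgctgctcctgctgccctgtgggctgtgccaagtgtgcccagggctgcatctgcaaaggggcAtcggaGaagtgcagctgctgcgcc
MT2A: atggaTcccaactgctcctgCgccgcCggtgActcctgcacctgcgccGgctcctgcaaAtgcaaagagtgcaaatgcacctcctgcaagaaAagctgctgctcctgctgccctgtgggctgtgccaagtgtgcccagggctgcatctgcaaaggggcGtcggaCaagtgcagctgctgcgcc
Since the copies are near-identical, each single-gene metallothionein value is uncertain in that the authors' counting may have split or shared reads between them. The stretch that the oligos read is not given here.

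Promoters are shown because metal response elements are the sequence feature that links MTF1 to its targets. RefSeq promoter windows (GRCh38.p14, the 250 bases before a start that RefSeq annotates) were present for 6 of the 10 genes, and MT1E, MT1F, MT1G and MT1M had no entry. The core searched was TGCACNC or TGCGCNC on both strands. It occurred at least once in 24.8% of the 35116 promoters of the table and at least 3 times in 1.58%. Matches are in capitals, written as they read on the gene's strand, and no matches overlapped. The windows lie at chr16:56608334-56608583 (plus strand) for MT2A, at chr16:56682220-56682469 (plus strand) for MT1X and at chr1:211579162-211579411 (minus strand) for SLC30A1. One of the pair of SLC30A10 windows is printed, at chr1:219928558-219928807 (minus strand). RefSeq starts differ from the GENCODE 29 spans given above. The MT2A window and the printed SLC30A10 window lie inside the GENCODE spans of their genes, and the MT1X window runs past the GENCODE start.
MT2A: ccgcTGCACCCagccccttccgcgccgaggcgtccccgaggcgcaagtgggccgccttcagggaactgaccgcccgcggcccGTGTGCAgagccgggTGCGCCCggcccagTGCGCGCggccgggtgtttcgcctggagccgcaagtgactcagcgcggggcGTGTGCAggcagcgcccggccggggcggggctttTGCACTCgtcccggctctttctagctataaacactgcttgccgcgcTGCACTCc
MT1X: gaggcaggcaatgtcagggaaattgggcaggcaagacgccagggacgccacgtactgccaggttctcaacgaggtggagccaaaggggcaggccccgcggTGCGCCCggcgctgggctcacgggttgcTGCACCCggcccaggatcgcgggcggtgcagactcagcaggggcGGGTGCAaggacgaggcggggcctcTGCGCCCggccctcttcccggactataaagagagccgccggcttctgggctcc
SLC30A1: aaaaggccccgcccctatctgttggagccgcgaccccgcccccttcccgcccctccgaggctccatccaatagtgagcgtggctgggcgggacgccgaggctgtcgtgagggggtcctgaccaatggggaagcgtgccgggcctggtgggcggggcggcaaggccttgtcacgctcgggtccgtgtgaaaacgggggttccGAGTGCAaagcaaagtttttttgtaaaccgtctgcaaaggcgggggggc
SLC30A10: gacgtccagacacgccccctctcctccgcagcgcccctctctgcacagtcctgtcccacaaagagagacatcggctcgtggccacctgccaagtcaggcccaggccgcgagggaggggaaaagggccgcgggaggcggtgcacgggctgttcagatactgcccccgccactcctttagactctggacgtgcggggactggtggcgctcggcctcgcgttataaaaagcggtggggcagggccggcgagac
The MT2A window held 7 matches, and 0.0313% of all promoters held as many. MT1X held 4 (0.370% of all promoters), MT1H held 8 (0.0171%) and SLC30A1 held 1 (24.8%). Neither SLC30A10 window nor that of MTF1 held these letters. A match is a string of letters and not a shown binding site.

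Total counts ran from 18760232 to 43443262 over the 21 libraries (median 31997292). Levels are CPM, counts scaled to the library size after TMM, which aligns the bulk of genes between libraries. In a single library 3 counts correspond to 0.0735 to 0.160 CPM, and group values are means ± SD over n = 3 libraries. A level in this assay depends on its oligos, so libraries are compared and genes are not. The labels call the replicates biological without saying that they came from separate cultures. The p-values therefore weigh a group difference against the spread between these samples, which may differ from that between separate cultures. As a check of the label, all 9 hepatocyte-derived markers (such as albumin and apolipoproteins) passed the filter and were higher in spheroids of Day 3 and of Day 28 than in the monolayer. Their summed level was 50615 to 52467 CPM at Day 3 and 37532 to 46433 CPM at Day 28, against 10534 to 11362 CPM in the monolayer. Of the markers of other cells, COL1A1 and DCN (stroma), KDR (endothelium) and PTPRC (leukocytes) were at 0 counts in all 21 libraries. The 5 stromal and 4 endothelial markers, 1 of each tested, summed to at most 3.29 and 1.02 CPM in any library. The summed level of 4 leukocyte markers, 3 of them tested, was 220 to 225 CPM at Day 3 and 81.8 to 92.2 CPM at Day 28, against 64.7 to 69.3 CPM in the monolayer. By the test described below, the tested stromal marker was higher at Day 3 and Day 28, and the endothelial one at Day 28 but not at Day 3. Of the 3 tested leukocyte markers, 2 were higher at Day 3, and 2 were higher and 1 lower at Day 28. Of all genes tested, 40.1% were called higher at Day 3 and 38.5% at Day 28. The part of these marker levels in the results was not tested.

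Of the 10 genes, 9 passed the filter on low counts and were tested with edgeR's quasi-likelihood test, fitted on 12345 genes with Benjamini-Hochberg adjustment over all of them. A gene was called at an adjusted p under 0.05. MT1H did not pass. It had 36 counts over all libraries and 0 in 12 of the 21, and 17 of its 36 counts were in replicate 3 of Day 3. No fold change is given for it.

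All 6 tested metallothioneins were higher in Day 3 spheroids than in the monolayer, by 3.04-fold (MT2A) to 41.7-fold (MT1F), and in the fit of all groups none of them was called different at Day 7 against Day 3 or at Day 10 against Day 7. SLC30A1 and SLC30A10 were higher as well, and MTF1 was lower. At Day 3, 8 of 9 tested genes were called higher and 1 lower, while 40.1% of all genes tested were called higher and 37.8% lower. The median log2 fold change of the 6 metallothioneins was 3.06, against 0.06 over all genes tested. In bulk RNA, fewer cells that express a gene and less of its RNA per cell cannot be told apart.

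MT1G, one of the metal-binding isoforms of the MT1 group, had 139.8, 145 and 141 CPM in the Day 3 libraries, against 3.64, 3.84 and 3.45 CPM in the monolayer libraries. The groups were far apart, with a log2 fold change of 5.28 ± 0.35 (SE; adjusted p = 1.08e-09). MT1F had 4.32, 6.43 and 5.70 CPM at Day 3, against 0.0847, 0.178 and 0.0976 CPM in the monolayer. The monolayer values of MT1F rest on 12 counts in all 3 libraries, so its ratio of summed counts, 41.8, has a 95% exact counting interval of 23.7 to 81.3. MT1M had 62.3, 61.4 and 52.3 CPM at Day 3, against 5.30, 4.07 and 4.07 CPM in the monolayer, a log2 fold change of 3.73 ± 0.24 (adjusted p = 1.01e-10). Every Day 3 library of these 3 genes was above every monolayer library, and how common this was among all genes was not worked out.

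The other metallothioneins had smaller log2 fold changes at Day 3. MT2A, the main isoform of the MT2 group, had 103, 96.4 and 86.0 CPM in the Day 3 libraries, against 28.5, 35.6 and 29.5 CPM in the monolayer libraries, and its log2 fold change was 1.61 ± 0.25 (adjusted p = 2.49e-05). MT1E averaged 23.8 ± 0.73 CPM at Day 3 and 5.43 ± 0.36 CPM in the monolayer. MT1X averaged 2.55 ± 0.27 CPM at Day 3 and 0.484 ± 0.14 CPM in the monolayer. MT1E and MT1X were 4.40-fold and 5.24-fold higher at Day 3 (adjusted p = 1.11e-12 and 3.40e-07), and their libraries did not overlap with those of the monolayer. Among 6 metallothionein symbols outside the 10, MT1A and MT1L passed the filter, with 108 and 284 counts over all libraries. The pseudogene MT1L was called higher at Day 3 (0.628 CPM in Day 3 spheroids and 0.174 CPM in the monolayer, adjusted p = 0.0384), a call lost without replicate 1 of the monolayer or replicate 1 or 2 of Day 3, and MT1A was not called.

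**Figure D1:**
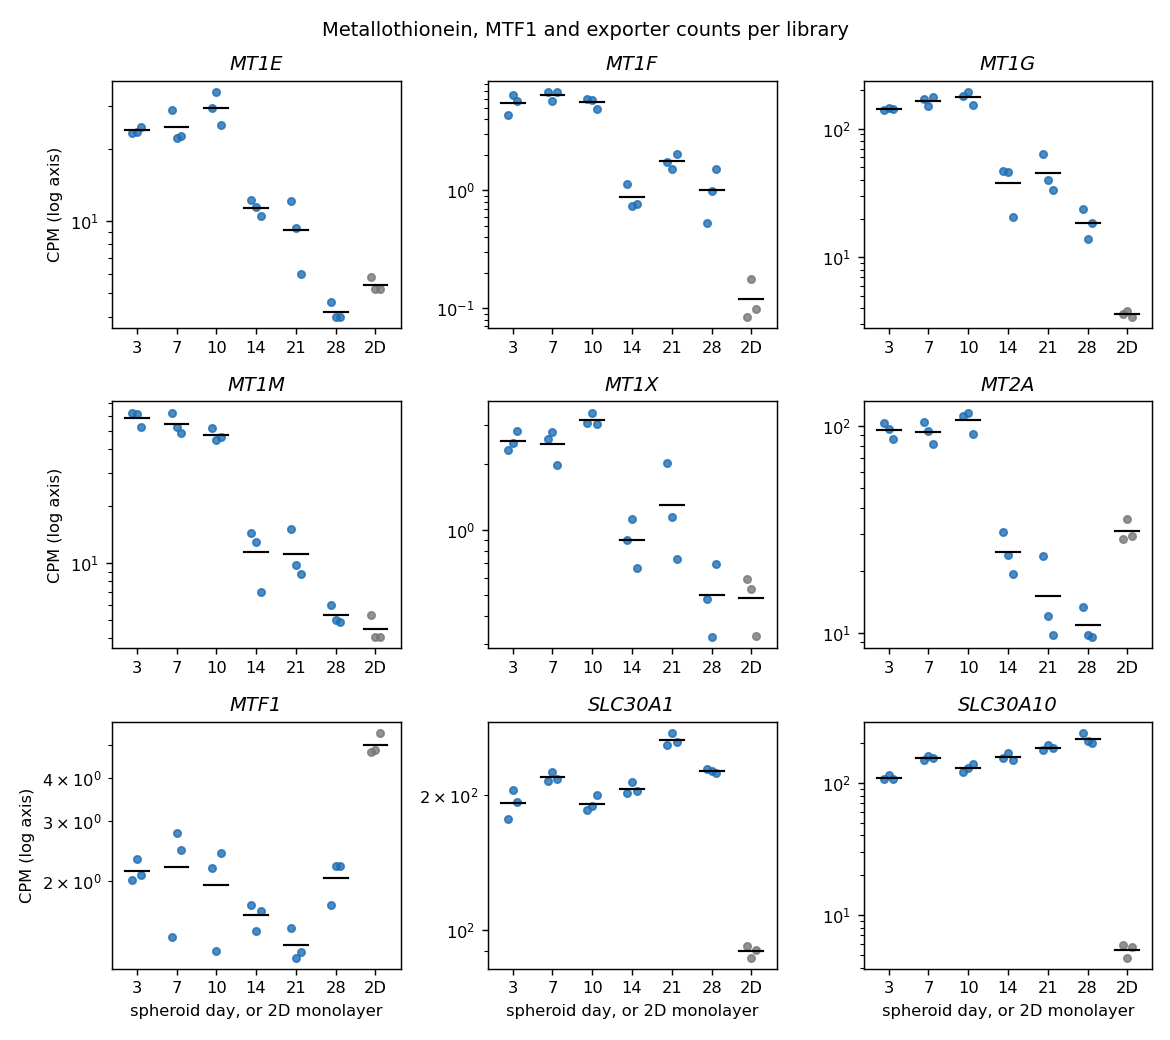
CPM (log axis) of the 9 tested genes in every library, by spheroid day (blue) and in the 2D monolayer (grey), with the group mean as a bar. The 6 metallothioneins are high at Days 3 to 10 and lower from Day 14, while SLC30A1 and SLC30A10 stay above the monolayer at every day and MTF1 stays below it.

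Within 3D culture the metallothioneins had no called step up to Day 10 in the fit of all groups and fell together at Day 14. At Day 28 against Day 21, 5 of the 6 were called lower, not all of them under every setting, and MT2A was not called. In the F test over the 6 spheroid days 8 of the 9 genes varied, against 76.2% of all genes tested, and MTF1 did not pass (adjusted p = 0.0909). The 2 genes called at Day 7 against Day 3 and at Day 10 against Day 7 were the exporters, both higher at Day 7 (10.6% of all genes were called higher and 8.76% lower) and both lower at Day 10 (13.9% higher and 13.5% lower). At Day 14 against Day 10 all 6 metallothioneins were called lower, with 24.3% of all genes called lower, and their log2 fold changes ran from -1.38 (MT1E) to -2.66 (MT1F), with a median of -2.08.

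MT1G had 46.7, 46.4 and 20.5 CPM in the Day 14 libraries, against 181, 192 and 153 CPM in the Day 10 libraries, a change of -2.21 ± 0.28 on the log2 scale (adjusted p = 8.10e-06). MT2A had 30.6, 23.7 and 19.3 CPM at Day 14, against 112, 115 and 91.6 CPM at Day 10, a change of -2.11 ± 0.25 (adjusted p = 4.65e-06). MT1M averaged 11.5 ± 3.9 CPM at Day 14 and 47.5 ± 3.5 CPM at Day 10. The groups did not overlap in any of the 6 genes, and how many of all genes were apart in this way was not worked out. Replicate 3 of Day 14 had the lowest MT1E, MT1G, MT1M, MT1X and MT2A of its group. The summed level of the leukocyte markers was 156 to 177 CPM at Day 14, against 204 to 215 CPM at Day 10, and that of the hepatocyte-derived markers was 42365 to 48907 CPM, against 63312 to 65294 CPM. Their part in the fall was not tested.

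At Day 21 against Day 14, 1 of the 6 tested metallothioneins was called higher and 0 lower, and differences between the genes were not tested. MT1F rose 2.00-fold, with 1.75, 1.53 and 2.04 CPM at Day 21, against 1.14, 0.734 and 0.767 CPM at Day 14 (log2 fold change 1.00 ± 0.28, adjusted p = 0.00743). MT2A had 23.4, 12.03 and 9.80 CPM at Day 21, which overlapped with Day 14, and a log2 fold change of -0.70 ± 0.26 (adjusted p = 0.0619). It was called without replicate 1 of Day 21 (-1.16, adjusted p = 0.000215) or without replicate 3 of Day 14 (-0.84, adjusted p = 0.0452). Replicate 1 of Day 21 had the highest MT1E, MT1G, MT1M, MT1X and MT2A of its group, and the SD of MT2A at Day 21 was 7.3 CPM around a mean of 15.1 CPM. MT1E, MT1G, MT1M and MT1X were not called in this step, although MT1E was without replicate 1 of Day 21 (-0.55, adjusted p = 0.0114) and MT1G, higher at Day 21, was with no filter on low counts (0.27, adjusted p = 0.00709). In this step 13.9% of all genes were called higher and 12.7% lower.

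The second fall, at Day 28 against Day 21, was called for 5 of the 6 metallothioneins, with 14.0% of all genes called lower. MT1E had 4.59, 4.01 and 3.997 CPM at Day 28, against 12.1, 9.39 and 6.04 CPM at Day 21, a change of -1.14 ± 0.18 on the log2 scale (adjusted p = 2.23e-05). MT1G had 23.6, 13.7 and 18.5 CPM at Day 28, against 63.1, 39.7 and 33.3 CPM at Day 21, a change of -1.31 ± 0.29 (adjusted p = 0.00431). Both gave groups that did not overlap. MT1M (-1.10 ± 0.24) and MT1X (-1.40 ± 0.38) also fell, and the call of MT1X was lost without replicate 1 of Day 21 (adjusted p = 0.0993) or replicate 2 of Day 28 (adjusted p = 0.0688). MT1F was at the threshold (-0.77 ± 0.28, adjusted p = 0.0446), and leaving out any of 14 single libraries lost its call. MT2A changed by -0.49 ± 0.28, which did not pass (adjusted p = 0.233) except with no filter on low counts (adjusted p = 2.15e-05). In a fit of these 2 groups alone, MT1F and MT1X were not called (adjusted p = 0.177 and 0.0651).

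From Day 3 to Day 28 all 6 metallothioneins fell, by 5.14-fold (MT1X) to 11.2-fold (MT1M), with 30.2% of all genes called lower in that comparison. The median log2 fold change was -2.73 for the 6 genes and 0.00 over all genes tested. At Day 28 the 6 genes had then separated relative to the monolayer, which these comparisons share. MT1F and MT1G were still higher in Day 28 spheroids, MT2A was lower, and MT1E, MT1M and MT1X were not called. MT2A had 13.3, 9.79 and 9.55 CPM at Day 28, against the 28.5 to 35.6 CPM of the monolayer libraries, 2.91-fold lower (adjusted p = 0.000115). It was already 2.07-fold lower at Day 21 (adjusted p = 0.00195), after a Day 14 level that overlapped with the monolayer (log2 fold change -0.35 ± 0.25, adjusted p = 0.2298) and that was called lower with no filter (adjusted p = 0.00105) and in a fit of these 2 groups alone (adjusted p = 0.0344).

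MT1G was 5.00-fold higher at Day 28 than in the monolayer (log2 fold change 2.32 ± 0.36, adjusted p = 3.15e-05), with its lowest Day 28 library at 13.7 CPM and its highest monolayer library at 3.84 CPM. MT1F was 7.96-fold higher (2.99 ± 0.42, adjusted p = 1.45e-07), on 83 counts at Day 28 and 12 in the monolayer. MT1M and MT1X overlapped with the monolayer, with log2 fold changes of 0.25 ± 0.27 and 0.03 ± 0.43 (adjusted p = 0.419 and 0.957). MT1E was in each Day 28 library below every monolayer library without passing (-0.38 ± 0.19, adjusted p = 0.0724), and it passed without replicate 3 of Day 21 (adjusted p = 0.0377) and with no filter on low counts (adjusted p = 0.0406). Over the 9 tested genes, 4 were called higher and 2 lower at Day 28, while 38.5% of all genes tested were called higher and 34.8% lower. The counts at the days between were 8 higher and 1 lower at Days 7 and 10, 7 and 1 at Day 14, and 7 and 2 at Day 21. The shares of all genes called higher were 40.4%, 40.0%, 38.7% and 39.3% at these 4 days, and the shares called lower were 38.4%, 37.9%, 35.7% and 35.1%. The Day 14 call of MT1X against the monolayer (0.89 ± 0.38, adjusted p = 0.0378) was lost without replicate 3 of the monolayer (adjusted p = 0.141) or without replicate 1 or 2 of Day 14 (adjusted p = 0.0592 and 0.156), and in a fit of these 2 groups alone (adjusted p = 0.0841).

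**Figure D2:**
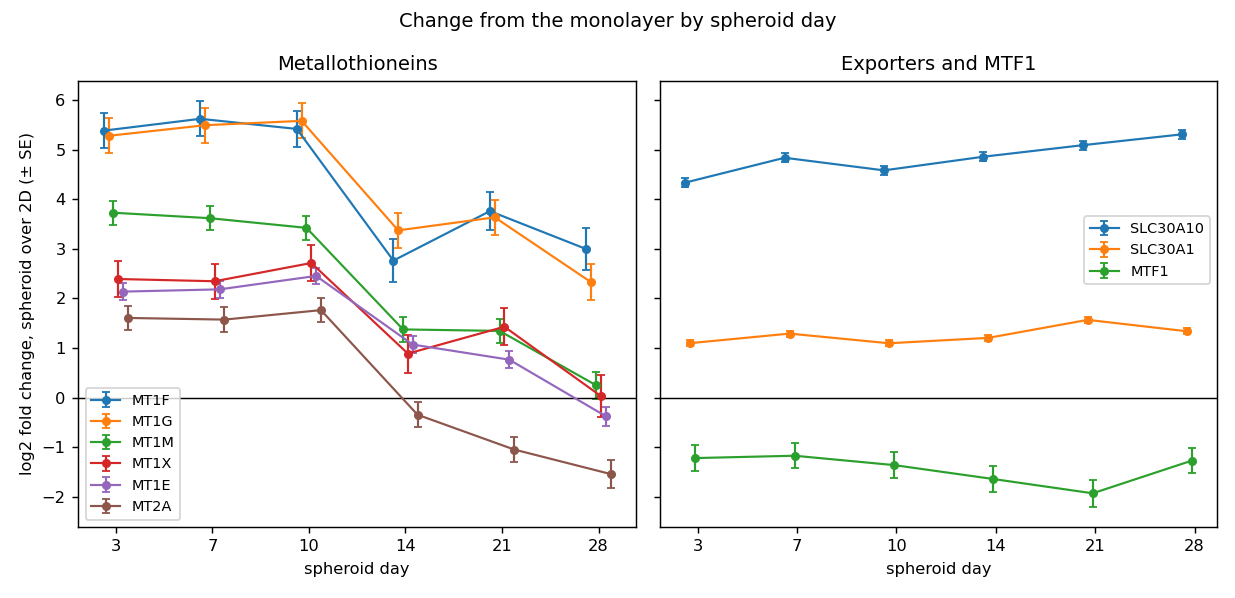
Log2 fold change of each tested gene over the monolayer (± SE of the edgeR fit) by spheroid day, with metallothioneins on the left and exporters and MTF1 on the right. The metallothionein lines step down at Day 14 and at Day 28, when MT2A is at -1.54 and MT1F at 2.99, while SLC30A10 climbs to 5.31.

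By group mean, Days 3, 7 and 10 stood above all other groups for each of the 6 metallothioneins, as the plot of CPM by library shows. Their libraries did not overlap with later days except for MT1X, with 1.98 CPM in replicate 3 of Day 7 and 2.01 CPM in replicate 1 of Day 21. Within Days 3, 7 and 10 neighbours overlapped for MT1E, MT1F, MT1M and MT2A. MT1G was higher in every Day 7 library than in any Day 3 library, without passing the test (log2 fold change 0.21 ± 0.26, adjusted p = 0.626). It did pass with no filter on low counts (adjusted p = 0.0341) and in a fit of these 2 groups alone (0.23, adjusted p = 0.00116). MT1X was higher in every Day 10 library than in any Day 3 or Day 7 library, also without passing against Day 7 (0.37 ± 0.30, adjusted p = 0.399). The summed level of the 7 metallothioneins, a description only, was 328 ± 13, 346 ± 24 and 367 ± 38 CPM at Days 3, 7 and 10. It was 87.0 ± 25, 84.0 ± 30 and 40.6 ± 7.5 CPM at Days 14, 21 and 28, against 45.4 ± 3.6 CPM in the monolayer. The Day 28 and monolayer libraries overlapped in this sum.

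Counts assigned to MT2A made up 28.98 ± 1.7% of the summed metallothionein counts at Day 3 and 26.9 ± 2.3% at Day 28, against 68.6 ± 3.6% in the monolayer. Its share at the days between ran from 17.5 ± 2.1% (Day 21) to 28.9 ± 0.52% (Day 10), and no spheroid library reached the lowest monolayer share of 64.8%. At Day 28 the shares of MT2A, MT1G, MT1M and MT1F did not overlap with those of the monolayer, and those of MT1E, MT1X and MT1H did. MT1G made up 43.4 ± 1.7% at Day 3, 54.2 ± 0.64% at Day 21 and 45.4 ± 4.2% at Day 28, against 8.04 ± 0.26% in the monolayer. MT1M contributed 17.9 ± 1.0% at Day 3 and 13.2 ± 1.3% at Day 28, against 9.93 ± 1.9% in the monolayer. These shares depend on the oligos of each gene and serve only to compare libraries, and no test was run on them.

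**Figure D3:**
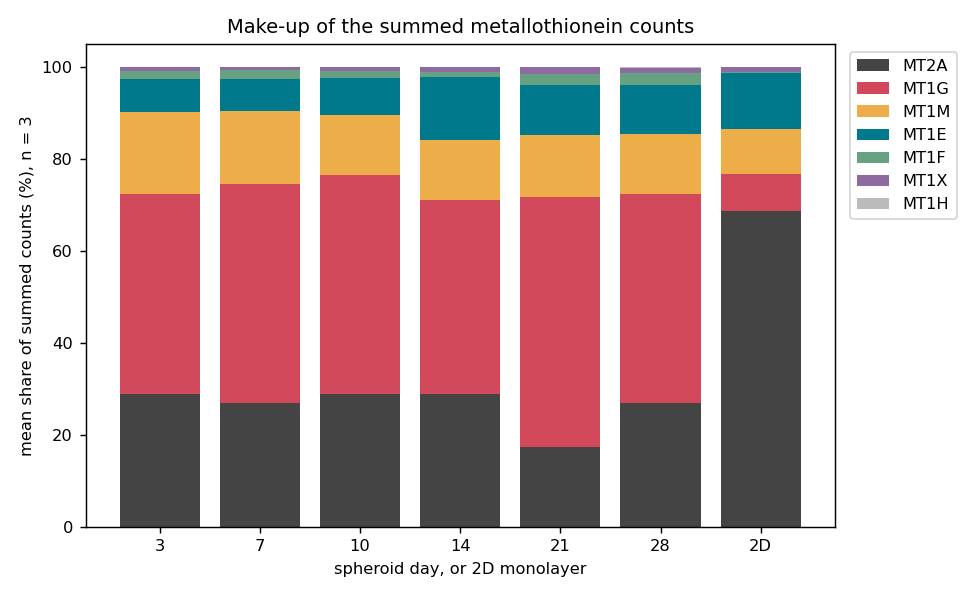
Mean share (%, n = 3 libraries) of each gene in the summed counts of the 7 metallothioneins, by spheroid day and in the 2D monolayer. The MT2A segment takes 17.5% to 28.98% in the spheroid groups and 68.6% in the monolayer, and the MT1G segment takes 42.3% to 54.2% and 8.04%.

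The changes are given beside the position in the cluster as a description, with no test. MT1F and MT1G, whose lowest coordinates lie 49495 and 58532 bases from that of MT2A, had the largest log2 fold changes over the monolayer at Day 3, 5.38 ± 0.36 and 5.28 ± 0.35. MT1X, further on at 74225 bases, had 2.39 ± 0.36, and MT2A and MT1E at the other end had 1.61 ± 0.25 and 2.14 ± 0.17. MT1M, between them and MT1F at 24034 bases, had 3.73 ± 0.24. Among these genes alone the values increased from MT2A to MT1F along the chromosome and were lower at MT1X. MT1L at 9277 bases and MT1A at 30467 bases, both tested on few counts, are left out of this order. Their median log2 fold change at Day 3 was 2.12, below that of MT1M. Over the 21 libraries the 15 pairs among the tested metallothioneins had Pearson's r of 0.688 (MT1G and MT2A) to 0.962 (MT1E and MT1M) on log2(CPM + 1), with a median of 0.911. These points share libraries, groups and scaling, and the values are descriptive. The pair with the lowest r was the pair with the closest coding sequences. The stretch that the oligos read is not given, and whether counts were shared between copies was not tested.

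**Figure D4:**
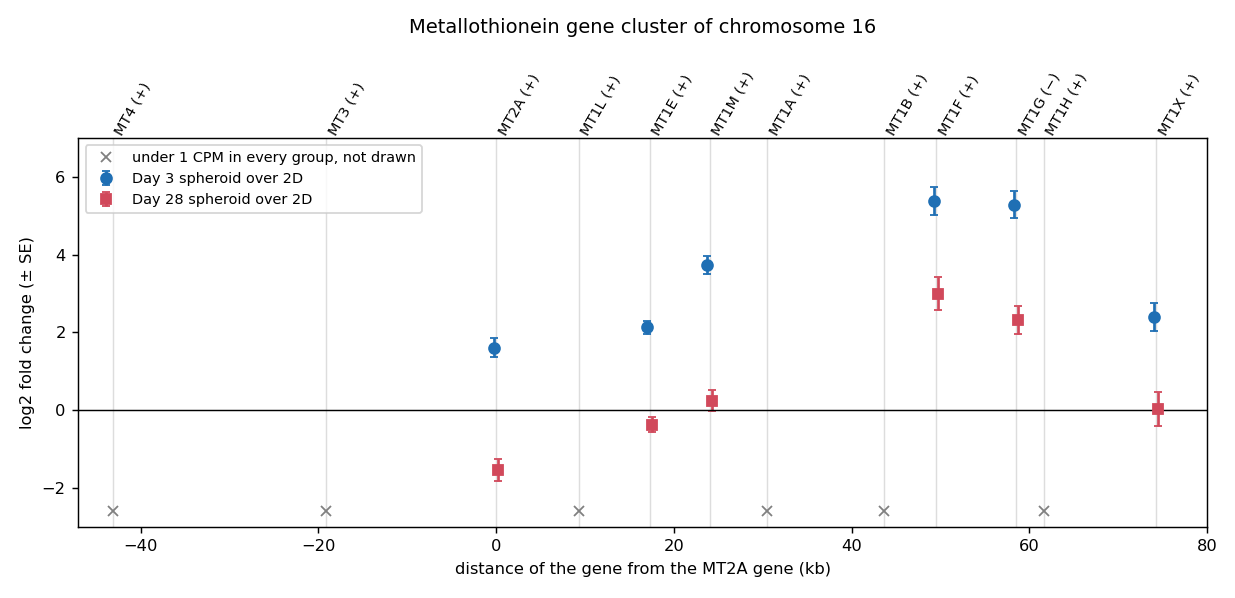
Log2 fold change over the monolayer (± SE) at Day 3 (blue circles) and Day 28 (red squares) against the distance of each gene's lowest coordinate from that of MT2A (kb), with strands in brackets. Values at Day 3 range from 1.61 for MT2A to 5.38 for MT1F, and crosses mark genes of the cluster under 1 CPM in every group.

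MTF1, the zinc sensor, was lower in spheroids than in the monolayer at every day. It had 2.01, 2.32 and 2.09 CPM in the Day 3 libraries and 1.71, 2.22 and 2.21 CPM in the Day 28 libraries, against 4.74, 4.81 and 5.40 CPM in the monolayer libraries. No spheroid library reached the monolayer range. The log2 fold changes were -1.22 ± 0.26 at Day 3 (adjusted p = 6.81e-05), -1.93 ± 0.27 at Day 21 (adjusted p = 8.65e-08) and -1.27 ± 0.26 at Day 28 (adjusted p = 5.87e-05). Its spheroid groups, with means of 1.30 to 2.21 CPM, overlapped with their neighbours in order throughout, and no step between days was called. MTF1 had only 1545 counts over all libraries, so small steps may have been missed. The RNA level does not measure the activity of the protein, which is set by zinc binding.

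SLC30A10 and SLC30A1 were higher than in the monolayer at every spheroid day and, unlike the metallothioneins, were not lower at Day 28 than at Day 3. SLC30A10 had 107, 115 and 107 CPM in the Day 3 libraries and 239, 206 and 200.3 CPM in the Day 28 libraries, against 5.97, 4.76 and 5.69 CPM in the monolayer libraries. Its log2 fold change over the monolayer was 4.33 ± 0.09 at Day 3 (20.2-fold, adjusted p = 2.06e-28) and 5.31 ± 0.09 at Day 28 (39.6-fold, adjusted p = 4.26e-30). Day 28 was 1.96-fold above Day 3 (0.97 ± 0.07, adjusted p = 2.33e-13), with 29.5% of all genes called higher in that comparison. The levels did not climb evenly. SLC30A10 averaged 155 ± 4.8 CPM at Day 7, 129.7 ± 9.6 CPM at Day 10, 157 ± 9.3 CPM at Day 14 and 185 ± 8.4 CPM at Day 21, and only Day 14 and Day 7, next to each other in that order, overlapped.

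Every step of SLC30A10 was called. It rose at Day 7 against Day 3 (0.50 ± 0.07, adjusted p = 5.50e-06) and fell at Day 10 against Day 7 (-0.25 ± 0.07, adjusted p = 0.00748). The fall was lost without replicate 1 of Day 10 (adjusted p = 0.109). It then rose at Day 14 (0.28 ± 0.07, adjusted p = 0.00185), at Day 21 (0.23 ± 0.07, adjusted p = 0.0145) and at Day 28 (0.22 ± 0.07, adjusted p = 0.0229), each against the day before. The share of all genes called higher was 24.0%, 13.9% and 10.0% in these 3 steps. The Day 21 step was lost without replicate 1 or 3 of Day 14 or replicate 2 of Day 21 (adjusted p = 0.0509, 0.0618 and 0.0931), and the Day 28 step without replicate 1 of either day (adjusted p = 0.111 without that of Day 21 and 0.108 without that of Day 28).

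SLC30A1 had 177, 205 and 194 CPM in the Day 3 libraries and 229, 226 and 224 CPM in the Day 28 libraries, against 92.2, 86.8 and 90.2 CPM in the monolayer libraries. It was 2.14-fold higher at Day 3 (1.10 ± 0.06, adjusted p = 1.46e-17), 2.96-fold at Day 21 and 2.52-fold at Day 28 (1.34 ± 0.06, adjusted p = 1.25e-19). Its highest group was Day 21, at 266 ± 8.6 CPM, which overlapped with no other group. Day 28 was above Day 3 by 0.24 ± 0.06 on the log2 scale (adjusted p = 0.000743). At Day 14 against Day 10, the step in which all 6 metallothioneins fell, SLC30A1 changed by 0.11 ± 0.06 and was not called (adjusted p = 0.126), though it was without TMM scaling (0.16, adjusted p = 0.0182). It rose at Day 7 (0.19 ± 0.06, adjusted p = 0.0182) and Day 21 (0.36 ± 0.06, adjusted p = 1.43e-05) and fell at Day 10 (-0.20 ± 0.06, adjusted p = 0.0117) and Day 28 (-0.23 ± 0.06, adjusted p = 0.00375), each against the day before. The Day 7 step was lost without replicate 1 of Day 3 or replicate 2 or 3 of Day 7 (adjusted p = 0.145, 0.0715 and 0.0591). The Day 10 step was lost without replicate 2 of Day 7 or replicate 1 or 2 of Day 10 (adjusted p = 0.0746, 0.113 and 0.0569). The Day 7 step was also lost without TMM scaling (adjusted p = 0.0728), and the Day 28 steps of SLC30A1 and SLC30A10 in a fit of Days 28 and 21 alone (adjusted p = 0.0570 and 0.0673).

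As a description over the 21 libraries, SLC30A1 and SLC30A10 had r = 0.973 on log2(CPM + 1), MTF1 and SLC30A1 had r = -0.875, and MT2A and SLC30A10 had r = -0.0629. The points share libraries, groups and scaling. Among 7199 genes compared by the same measure, the genes most like SLC30A10 were ALDH6A1 (0.995), ADH6 (0.994), GAS2 (0.993), BCKDHB (0.992) and CHDH (0.991). Those most like SLC30A1 included SORBS2 (0.986), CX3CL1 (0.984) and ADH6 (0.983). FN3KRP (0.986), CLIC3 (0.985) and APOBEC3C (0.982) were most like the summed metallothioneins, and KANSL3 (0.930) and TNFAIP1 (0.920) were most like MTF1.

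Other zinc transporters were called in one direction for the exporters and in both for the importers. Of 8 other exporters of the SLC30 family 4 were tested, of which 3 were higher at Day 3 and 4 at Day 28, and none was lower. SLC30A9, a mitochondrial zinc transporter, changed most, by 1.59 ± 0.08 at Day 3 and 1.25 ± 0.08 at Day 28. Of 14 importers of the SLC39 family 12 were tested, with 4 higher and 6 lower at Day 3 and 6 higher and 3 lower at Day 28. These counts lie beside 40.1% of all genes called higher and 37.8% lower at Day 3, and 38.5% and 34.8% at Day 28. The importers' median log2 fold change was -0.05 at Day 3 and 0.46 at Day 28. SLC39A5, a zinc importer of liver and gut, rose by 0.93 ± 0.08 at Day 3 and by 1.81 ± 0.08 at Day 28. SLC39A10, an importer of the plasma membrane, was lower at Day 3 (-1.44 ± 0.14, adjusted p = 6.94e-11), and SLC39A1, another importer, was lower at both times (-1.03 ± 0.14 and -0.45 ± 0.14). Without TMM scaling only 1 importer was called lower at Day 28.

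Genes for manganese and copper were called in both directions. Of 6 manganese genes 3 were higher and 1 lower at Day 3, and 2 were higher and 1 lower at Day 28. SLC39A8 and SLC39A14 are in this list and were also counted among the importers, and SLC39A8 averaged only 0.0363 CPM in the monolayer. With no filter on low counts 1 manganese gene was called higher at Day 28. TMEM165, a Golgi transporter, rose by 1.14 ± 0.10 and 1.00 ± 0.10 at these times, and ATP2C1, a Golgi pump for calcium and manganese, fell by 0.93 ± 0.10 and 1.15 ± 0.10. Of 11 copper genes 5 were higher and 1 lower at Day 3, and 7 were higher and 3 lower at Day 28. Without TMM scaling 10 copper genes were called higher at Day 3. The manganese and copper counts also lie beside 40.1% of all genes called higher and 37.8% lower at Day 3, and 38.5% and 34.8% at Day 28. ATOX1, the chaperone that hands copper to the export pumps, rose by 2.11 ± 0.14 at Day 3, and COX11, which helps to insert copper into cytochrome c oxidase, rose by 2.03 ± 0.08 at Day 3 and 1.70 ± 0.08 at Day 28. ATP7B, the hepatic copper pump that is lost in Wilson disease, rose by 1.52 ± 0.07 at Day 28, while COX17, a mitochondrial copper chaperone, fell by 1.15 ± 0.10. All these values are log2 fold changes over the monolayer from the edgeR fit.

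**Figure D5:**
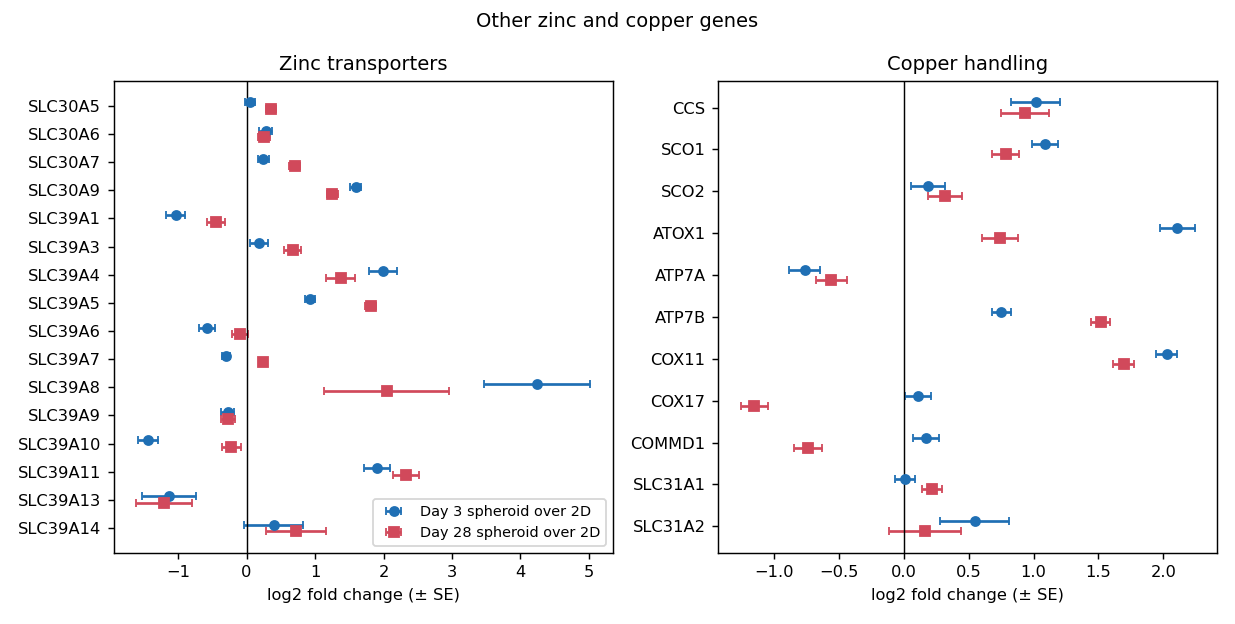
Log2 fold change over the monolayer (± SE) at Day 3 (blue circles) and Day 28 (red squares) of the tested SLC30 and SLC39 zinc transporters other than SLC30A1 and SLC30A10 (left) and of 11 copper genes (right). SLC30A9, SLC39A5, COX11 and ATP7B lie right of 0 at both days and SLC39A1 and ATP7A left of it; SLC39A8 rests on few counts.

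The genes that share other inducers with metallothioneins were described in the same way. Of 9 tested glucocorticoid response genes 3 were higher and 5 lower at Day 3, and 3 were higher and 3 lower at Day 28, or 5 higher without TMM scaling. FKBP5, a glucocorticoid-induced chaperone partner, rose by 0.34 ± 0.08 at Day 3 and fell by 0.73 ± 0.09 at Day 28, and TAT, tyrosine aminotransferase, fell by 2.00 ± 0.10 at Day 3 and rose by 1.77 ± 0.09 at Day 28. DUSP1, a phosphatase that several signals induce, fell by 4.50 ± 0.10 at Day 3 and by 3.34 ± 0.09 at Day 28. Of 9 genes that metals or oxidants induce, 2 were higher and 7 lower at Day 3, and 2 were higher and 6 lower at Day 28. HMOX1, heme oxygenase, rose by 2.29 ± 0.11 at Day 3 and 0.56 ± 0.12 at Day 28. NQO1, a quinone reductase, rose by 1.27 ± 0.07 at Day 3, while SRXN1, sulfiredoxin, fell by 3.51 ± 0.10 at Day 3. HSPA1A, a stress-induced heat shock protein with a near-identical copy, fell by 5.22 ± 0.29 at Day 3 and 3.66 ± 0.26 at Day 28. These counts stand beside the shares of all genes called at Days 3 and 28 given above and are descriptions of the lists.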

How the data were processed

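RNA of 21 HepG2/C3A libraries was measured by TempO-Seq. The values are raw counts by gene symbol in a single table that the authors deposited. Tools listed in the submitters' processing notes were STAR 2.7.10b, fastp 0.23.2, bcl2fastq 2.20.422 and DESeq2 1.38.0, with the build GRCh38.p13. How several oligos for a gene were summed is not given here.

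Counts were fitted on all 21 libraries in edgeR 4.0.16 (R 4.3.3; filterByExpr with a minimum count of 10, TMM, robust quasi-likelihood, biological coefficient of variation 9.62%), which was tested on simulated data. Its estimate of a gene's spread is shared by the 7 groups. Spheroid days were compared with the monolayer, with the preceding day and, for Day 28, with Day 3, and by an F test over the spheroid days. An SE is the absolute log2 fold change divided by the square root of F. Alternatives were DESeq2 size factors, library size alone, no filter, the DESeq2 1.42.0 Wald test, fits on 2 groups, a replicate block and leaving out each library. Replicate pairs differed by more than sampling noise (chi-square per degree of freedom 5.68 to 29.7 over 21 pairs). Counting intervals and the 3-count floor cover counting error only. Overlap between groups was looked at in the listed genes only, so no share over all genes stands beside it. All 10 genes were named by rule. In the other lists, genes were named from up to 2 called genes with the largest change in each direction at Day 3 and Day 28, where the mean reached 10 CPM. Not all genes that this rule chose are named, and SLC39A8 and SLC39A14 were named outside it. MT1L and MT1A were named after their values were seen. The genes and lists were chosen with earlier results of these data known. Coordinates came from GENCODE 29, matched by symbol, since the table holds none, and promoter sequences from RefSeq.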

Additional observations from a re-analysis of the deposited data

Results flagged for a closer look

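The change from the monolayer differed between Day 28 and Day 3 for 8 of the 9 tested genes. This is the edgeR contrast of those days already described, in which 29.5% of all genes tested were called higher and 30.2% lower. The difference, Day 28 minus Day 3 on the log2 scale, was -2.51 for MT1E, -2.39 for MT1F, -2.96 for MT1G, -3.48 for MT1M, -2.36 for MT1X and -3.15 for MT2A. It was 0.24 for SLC30A1 and 0.97 for SLC30A10, the opposite direction. For MTF1 the difference was -0.05 ± 0.27 and did not pass (adjusted p = 0.890).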

How the results depend on the processing

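Over 108 values, 9 genes in 12 comparisons, no called value changed direction under any of 27 settings, of which 21 left out 1 library. Of the 79 calls, all remained with DESeq2 size factors, no filter, the DESeq2 Wald test and the replicate block, 77 with library size alone and 74 with fits on 2 groups. Library size alone moved the median log2 fold change of all genes by 0.14 to 0.22 in comparisons with the monolayer and by at most 0.06 in size between days. Counts that moved past 1.5 times the reported one were few: 2 genes lower at Day 14 against the monolayer (no filter, and fits on 2 groups; 1 reported), 1 higher at Day 7 against Day 3 and 2 higher at Day 14 against Day 10 (library size alone; 2 and 1 reported), and 1 lower at Day 21 against Day 14, MT2A (library size alone, no filter, the replicate block, and DESeq2; 0 reported). At Day 28 against Day 21, fits on 2 groups gave 0 higher and 3 lower (1 and 6 reported). Replicate numbers were not taken as pairs, since the labels tie them to nothing shared. Between libraries of different groups, deviations from the group means were correlated. Their r ran from -0.0791 to 0.303 (median 0.0249) over 63 same-numbered pairs and from -0.276 to 0.181 (median -0.0106) over 126 others. As a hint from the data, 15 of 21 libraries correlated best with their own number. With the replicate block 2 uncalled values became called, MT1E at Day 28 against the monolayer (adjusted p = 0.0387) and MT2A at Day 21 against Day 14 (adjusted p = 0.0111). Leaving out each library lost 31 of 1659 repeated calls. The counts then ranged from 6 to 7 higher at Day 14 and 2 to 3 lower at Day 28 against the monolayer, 1 to 2 higher at Day 7, 0 to 2 lower at Day 10, 2 to 3 higher and 0 to 2 lower at Day 21, 0 to 1 higher and 4 to 6 lower at Day 28, each against the day before, and 8 to 9 in the F test. Uncalled values that changed sign were, with library size alone, MT1E (-0.0039) and MTF1 (-0.0038) at Day 7 against Day 3. With a library left out, values at Day 7 against Day 3 ran from -0.081 to 0.12 (MT1E), -0.14 to 0.079 (MT1X), -0.11 to 0.043 (MT2A) and -0.14 to 0.30 (MTF1), MTF1 from -0.43 to 0.071 at Day 10 against Day 7 and -0.084 to 0.071 at Day 28 against Day 3, MT1G from -0.046 to 0.45 and MT1M from -0.30 to 0.17 at Day 21 against Day 14, and MT1X from -0.29 to 0.34 at Day 28 against the monolayer. Over all genes, 1081 fell and 1312 rose at Day 7 against Day 3, against 1637 and 1765 lower with library size alone and fits on 2 groups, as few as 617 lower and 867 higher with a library left out, 1088 lower at Day 10 without replicate 1 of that day (1664 reported), and 988 lower at Day 28 against Day 21 with fits on 2 groups (1724 reported). The cause was not tested. Depth limits MT1H, MT1F, MT1X and MTF1, whose counts were few.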
